A study of Mus musculus with 703 samples.

Results

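The polyamine genes described here are 5 of the 19088 genes measured in gastrocnemius muscle of CC-RIX mice. They are Amd1, Odc1, Smox, Srm and Azin1, picked by gene symbol for their place in the pathway. Earlier results of these data were known when they were picked. All 5 were in the table and all 5 passed the filter on low counts. Bulk RNA of the muscle was sequenced in 703 animals, each giving a single library. CC-RIX animals are first-generation crosses between Collaborative Cross lines, which are inbred mixtures of 8 founder genomes, and 19 of these lines were crossed to make the 20 strains here. Females and males ate a diet with 10% or 44% fat, both with added fiber, from 6 weeks of age. Part of the mice received metformin, which lowers blood glucose, in their drinking water (5 mg/mL, starting at an age of 7 months). Animals were killed at 6 or at 12 months without the labels saying which, so metformin and age cannot be told apart in these libraries.

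Without metformin there were 236 females and 233 males, of which 234 ate 10% fat and 235 ate 44% fat. With metformin there were 57 females and 59 males on 10% fat, and 59 of each sex on 44% fat. The 40 combinations of strain and sex held 5 to 14 untreated animals, with a median of 12.

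Polyamines (putrescine, spermidine and spermine) are small, positively charged molecules that bind nucleic acids and are needed for growth and translation. Ornithine decarboxylase, encoded by Odc1, makes putrescine from ornithine. S-adenosylmethionine decarboxylase, encoded by Amd1, supplies the aminopropyl groups that spermidine synthase (Srm) and spermine synthase (Sms) add to putrescine and spermidine. Spermine oxidase (Smox) turns spermine back into spermidine. Azin1 encodes antizyme inhibitor, a relative of ornithine decarboxylase without its activity, which binds antizyme and so keeps the decarboxylase from being degraded. In skeletal muscle these enzymes are known to respond to androgens and to be linked to muscle mass. Much of the control of ornithine decarboxylase and S-adenosylmethionine decarboxylase acts on translation and protein stability, which RNA counts do not measure.

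In the deposited annotation, whose positions match GRCm38, Amd1 (ENSMUSG00000075232) lies on chromosome 10 from 40287458 to 40302188 on the minus strand. Odc1 (ENSMUSG00000011179) lies on chromosome 12 from 17544873 to 17551502 on the plus strand. Smox (ENSMUSG00000027333) lies on chromosome 2 from 131491496 to 131525922 on the plus strand. Srm (ENSMUSG00000006442) lies on chromosome 4 from 148591503 to 148594993 on the plus strand, and Azin1 (ENSMUSG00000037458) on chromosome 15 from 38487430 to 38519266 on the minus strand. The members are therefore on 5 different chromosomes.

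The 3 members with the large sex difference described below, Amd1, Odc1 and Smox, had a promoter entry in RefSeq (GRCm38.p6), and these sequences are shown because they belong to the genes with that difference. Srm and Azin1 had no entry. Each is the 250 bases before the RefSeq start of the gene, written 5′ to 3′ on the strand of the gene. Capitals mark the GC box GGGCGG, searched on both strands, and the TATA box TATANA, searched on the sense strand. The Amd1 window is chr10:40302189-40302438 on the minus strand, that of Odc1 is chr12:17544623-17544872 on the plus strand, and that of Smox is chr2:131491612-131491861 on the plus strand.
Amd1: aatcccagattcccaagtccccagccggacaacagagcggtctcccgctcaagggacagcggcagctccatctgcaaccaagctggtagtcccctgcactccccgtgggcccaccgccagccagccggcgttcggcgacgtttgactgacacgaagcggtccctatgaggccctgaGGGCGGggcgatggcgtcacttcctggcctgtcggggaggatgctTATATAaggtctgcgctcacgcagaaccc
Odc1: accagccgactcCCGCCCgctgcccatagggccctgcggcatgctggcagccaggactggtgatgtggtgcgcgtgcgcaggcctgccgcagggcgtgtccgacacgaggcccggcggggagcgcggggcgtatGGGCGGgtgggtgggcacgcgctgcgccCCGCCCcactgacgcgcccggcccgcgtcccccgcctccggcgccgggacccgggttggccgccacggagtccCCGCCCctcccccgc
Smox: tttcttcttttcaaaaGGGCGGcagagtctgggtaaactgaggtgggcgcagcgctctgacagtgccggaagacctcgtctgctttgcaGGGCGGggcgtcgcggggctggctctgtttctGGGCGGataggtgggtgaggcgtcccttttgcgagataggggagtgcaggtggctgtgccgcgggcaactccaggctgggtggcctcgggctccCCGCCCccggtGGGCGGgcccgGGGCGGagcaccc
The RefSeq start of Smox is 366 bases inside the gene as deposited, so its window lies within the deposited gene, while those of Amd1 and Odc1 are the same as deposited. Amd1 had a TATA box at positions -29 to -24 and 1 GC box at -74 to -69, counted back from the start. Odc1 had 4 GC boxes and Smox had 6, and neither window held a TATANA. Over 32851 RefSeq promoter windows of the same length, 32.7% held the GC box and 16.4% the TATA box. GC content was 64.4% for Amd1, 80% for Odc1 and 68% for Smox, against a median of 52.4%. The half-site AGAACA of androgen and glucocorticoid receptors was in 16.1% of the windows, the palindromic androgen response element in 0.00913% and the E-box CACGTG in 6.02%, each searched on both strands. None of these 3 motifs occurred in the windows of Amd1, Odc1 and Smox.

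Total counts per library lay between 27368536 and 96100529, with a median of 47876086. Muscle fibre markers summed to 77620.0 to 163400.0 CPM in untreated animals, where CPM is a gene's count scaled to the total of its library, so the tissue matched its label. Expression of Xist, the RNA of the inactive X chromosome, went against the sex label in 15 libraries, 11 of them untreated, and 5 of the 11 belonged to (CC011/UncJ x CC005/TauUncJ)F1. Liver transcripts were high in 3 libraries, and 4 had a profile closest to another strain. The identifiers in the library titles fall into a lower range of 544 and an upper range of 159 libraries, which entered every main model as a term. The labels do not say what these ranges stand for. All animals of (CC009/UncJ x CC013/GeniUncJ)F1 belong to the upper range. Tests used edgeR's quasi-likelihood method, and "called" means an adjusted p (Benjamini-Hochberg, across the whole table) under 0.05. Values after ± are the SD for levels and the SE for log2 fold changes.

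Amd1 was the most abundant member in both sexes. Its level in untreated females ranged from 78.8 to 1039 CPM with a median of 196 CPM (mean 214 ± 110 CPM, n = 236). In untreated males it ranged from 170.0 to 2962 CPM with a median of 1207 CPM (mean 1301 ± 447 CPM, n = 233). The ranges of the sexes overlapped only when the libraries whose Xist level went against the label were included. Without them, females ranged from 78.8 to 474 CPM (n = 229) and males from 589 to 2962 CPM (n = 229), and not 1 animal lay in the range of the other sex.

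Odc1 ranged in untreated females from 24.2 to 88.04 CPM with a median of 53.03 CPM (mean 53.03 ± 12.6 CPM). In untreated males its level ranged from 42.8 to 463 CPM with a median of 137 CPM (mean 154 ± 79.2 CPM). Here the ranges overlapped also without the libraries at odds with their label, since 45 males lay below the highest female. Smox ranged from 10.8 to 114.7 CPM in untreated females, with a median of 27.2 CPM, and from 28.7 to 609 CPM in untreated males, with a median of 106.9 CPM. Means were 29.8 ± 14.1 and 125 ± 77.3 CPM. Of the males, 86 lay below the highest female once those libraries were left out.

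Srm and Azin1 had nearly the same level in both sexes. Srm, the least abundant member, had a median of 3.75 CPM in untreated females (2.13 to 7.14 CPM) and of 3.45 CPM in untreated males (1.31 to 6.22 CPM). The lowest count of Srm in a library was 54 reads, so each member was detected in every library. Azin1 had a median of 38.3 CPM in females (21.8 to 105.4 CPM) and of 40.5 CPM in males (18.2 to 71.3 CPM). The ranges of the sexes overlapped throughout for both genes.

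**Figure D1:**
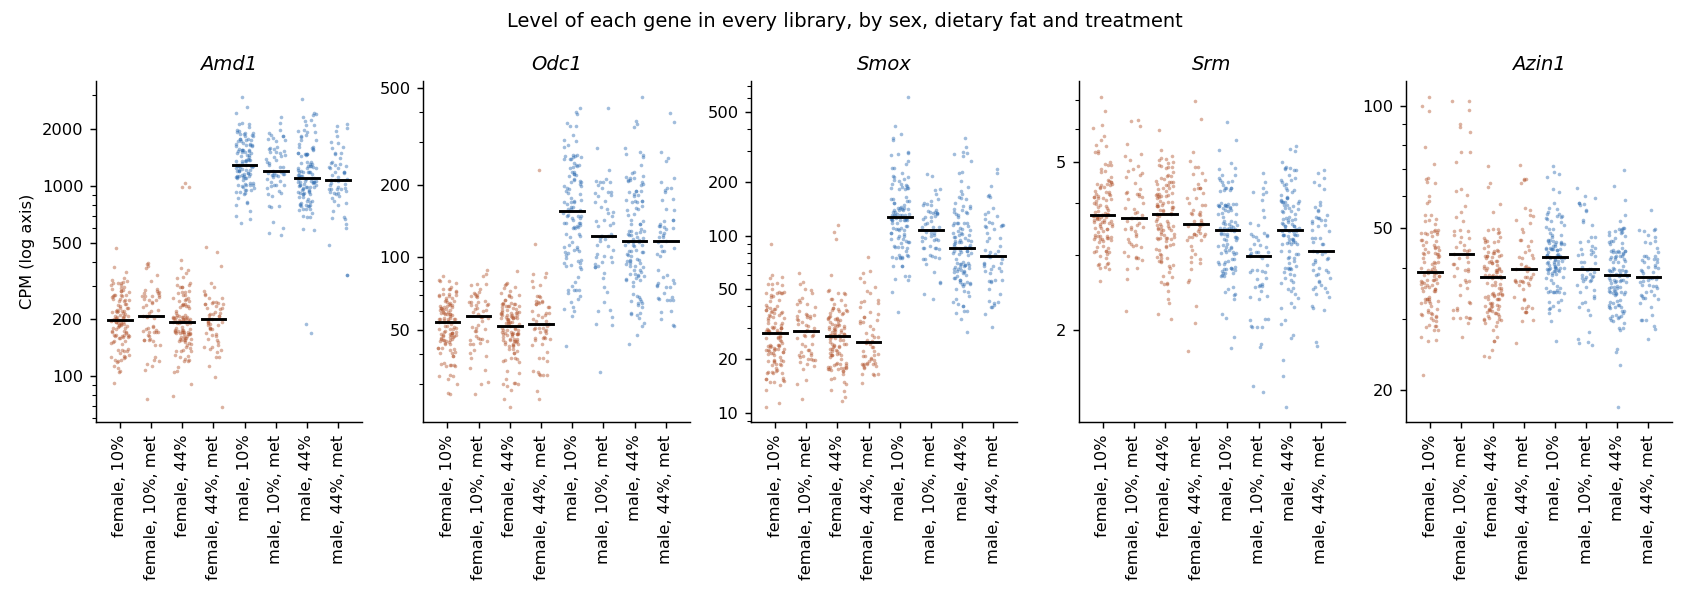
Level of each gene in CPM (log axis) in the 8 groups of sex, dietary fat and treatment, 1 point per library, with the group's median as a bar. Amd1, Odc1 and Smox were higher in all 4 male groups than in the 4 female groups by their medians, and the medians of Srm and Azin1 stayed within narrow ranges.

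Levels of different genes are compared per kilobase of exon, since a longer transcript gives more reads. In untreated females the order was Amd1 with 60.4 ± 31.1 CPM per kilobase, Odc1 with 15.6 ± 3.69, Smox with 7.65 ± 3.61, Azin1 with 6.44 ± 1.83 and Srm with 2.40 ± 0.50. In untreated males Amd1 stood at 367 ± 126 CPM per kilobase, Odc1 at 45.2 ± 23.3, Smox at 32.1 ± 19.8, Azin1 at 6.60 ± 1.35 and Srm at 2.18 ± 0.50. The order was the same in both sexes. Smox and Azin1 in females, and Odc1 and Smox in males, lay within 1 SD of each other. With the length of the longest transcript in place of all exons, Odc1 stood at 24.02 and 69.8 CPM per kilobase and Smox at 12.95 and 54.4 in females and males, and the order did not change.

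The comparison of the sexes asked which genes differ between males and females of the same strain and diet. Amd1 was 6.47-fold higher in males, Smox 4.25-fold and Odc1 2.87-fold, while Azin1 differed by 8.67% and Srm by -5.08%. As log2 fold changes, males minus females, Amd1 had 2.69 ± 0.04 (adjusted p = 4.4e-223), Smox 2.09 ± 0.05 (adjusted p = 1.9e-147) and Odc1 1.52 ± 0.04 (adjusted p = 1.9e-136). Among 16384 genes tested, these ranked 7, 17 and 41 by log2 fold change in favour of males. All 5 members were called, where 67.1% of all genes were called, 30.1% as higher and 37% as lower in males. A call with a log2 fold change over 1 in males was made for 0.586% of genes and for 3 of the 5 members.

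These differences held in every strain for the 3 genes. Within each of the 20 strains, Amd1, Odc1 and Smox were higher in males. Sex took 86.5% of the variance of log2 CPM for Amd1, 68.7% for Smox and 63.4% for Odc1, as omega squared, against 1.59% for the median gene. The 5 untreated libraries with Amd1 on the side of the other sex, counted from the midpoint of the sexes' means, were all among the 11 with Xist against the label, and 0 of the other 458 lay there. The other-side counts without those 11 libraries were 41 for Odc1 and 23 for Smox, and in those 11 they were 2 and 5.

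The small differences of Azin1 and Srm were less even. Azin1 was higher in males in 16 of 20 strains (log2 fold change 0.12 ± 0.02, adjusted p = 1.9e-07). In the upper identifier range alone it had -0.15 ± 0.06 (adjusted p = 0.057), and in metformin-treated animals alone -0.05 ± 0.03 (adjusted p = 0.15), so its direction did not hold there. Srm was lower in males in 15 of 20 strains (log2 fold change -0.08 ± 0.02, adjusted p = 0.0038), and in treated animals alone it had -0.23 ± 0.03 (adjusted p = 1.4e-09). In treated animals alone Amd1 had 2.60 ± 0.05, Smox 1.81 ± 0.06 and Odc1 1.24 ± 0.06.

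Fibre markers moved with sex as well. Summed markers of slow fibres had a median of 2180 CPM in untreated females (1254 to 4442 CPM) and of 1339 CPM in males (460 to 2643 CPM), and all 7 markers of the list were called lower in males. Of 8 markers of muscle fibres, 7 were called higher in males. Adipocyte markers summed to a median of 219 CPM in females (61.1 to 1035 CPM) and 166 CPM in males (61.3 to 1049 CPM), with 5 of 6 called lower in males and 1 higher. Of 4 endothelial markers 2 were called higher in males and 1 lower. Of 7 liver markers 2 were higher, and of 4 Schwann cell markers 1 was lower. No macrophage or blood marker was called, where 67.1% of all genes were. The part of the markers in the sex differences of the polyamine genes was not tested. In bulk muscle, a change in the share of a cell type and a change in RNA per cell cannot be told apart.

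The strains differed in all 5 genes, as they did in 95.4% of all genes tested. The smallest adjusted p was that of Odc1 (3.5e-40), and the largest that of Srm (1.5e-09). Strain took 3.79% of the variance of Amd1, 9.96% of Smox, 11.1% of Srm, 14.7% of Odc1 and 16.7% of Azin1, against 15.3% for the median gene. For Amd1 this share was lower than for all but 10.7% of genes.

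For Amd1, (CC009/UncJ x CC013/GeniUncJ)F1 had the lowest medians of untreated animals in both sexes, with 122 CPM in females (78.8 to 138 CPM, n = 5) and 723 CPM in males (641 to 817 CPM, n = 5). The highest medians, also in both sexes, were those of (CC012/GeniUncJ x CC002/UncJ)F1, with 353 CPM in females (264 to 474 CPM, n = 12) and 1884 CPM in males (1435 to 2864 CPM, n = 12). Within both strains, the lowest male lay above the highest female. In the strain with the low value, reads were shared with a copy of the gene, as described below.

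For Odc1 and Smox, the order of strains was not the same in the sexes. The highest male median of Odc1 was 249.7 CPM in (CC001/UncJ x CC042/GeniUncJ)F1 (119.3 to 463 CPM, n = 12), and the lowest was 63.3 CPM in (CC011/UncJ x CC005/TauUncJ)F1 (43.7 to 136 CPM, n = 14). Among females, (CC042/GeniUncJ x CC040/TauUncJ)F1 had the highest Odc1 median, 66.2 CPM (55.6 to 83.9 CPM, n = 12), and (CC043/GeniUncJ x CC011/UncJ)F1 the lowest, 30.2 CPM (24.2 to 55.6 CPM, n = 12).
Smox in males ranged from a median of 57.5 CPM in (CC002/UncJ x CC075/UncJ)F1 (33.9 to 110 CPM, n = 12) to 254 CPM in (CC051/TauUncJ x CC019/TauUncJ)F1 (91.3 to 609 CPM, n = 12). The males of that strain spanned a wide range. In females the Smox medians went from 15.6 CPM in (CC043/GeniUncJ x CC042/GeniUncJ)F1 (11.4 to 23.8 CPM, n = 13) to 48.3 CPM in (CC011/UncJ x CC027/GeniUncJ)F1 (28.6 to 60.1 CPM, n = 12).

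Srm medians ran from 3.27 to 4.93 CPM over the strains in females and from 2.95 to 4.32 CPM in males. Azin1 had its highest median in the same strain in both sexes, (CC019/TauUncJ x CC042/GeniUncJ)F1, with 53.5 CPM in females (21.8 to 105.4 CPM, n = 12) and 49.1 CPM in males (30.6 to 71.3 CPM, n = 12). The females of this strain included both the lowest and the highest Azin1 level of any untreated female.

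**Figure D2:**
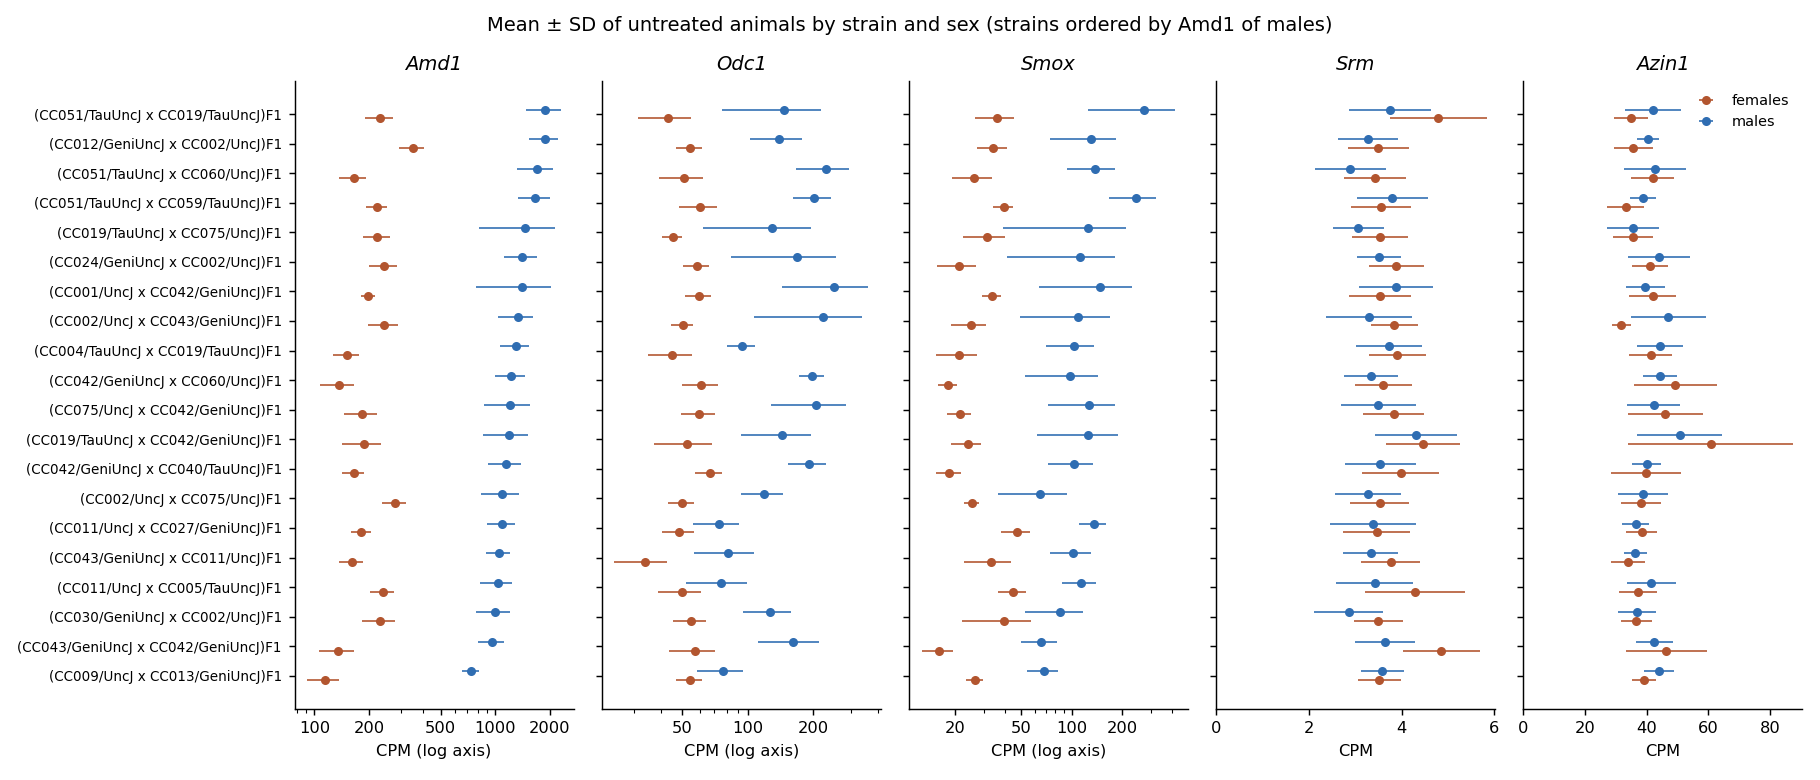
Mean CPM ± SD of untreated females and males of the 20 strains, ordered by Amd1 in males, without the libraries against their sex label (the axes of Amd1, Odc1 and Smox are logarithmic). The male means of Amd1, Odc1 and Smox lie right of the female means in each strain, while the intervals of Srm and Azin1 overlap in most.

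The size of the sex difference depended on the strain for 4 of the 5 genes (34.1% of all genes were called for sex by strain). Adjusted p was 9.9e-31 for Amd1, 6.3e-22 for Odc1, 3.1e-18 for Smox, 0.0011 for Azin1 and 0.10 for Srm. The log2 difference of Amd1 ran from 1.30 in (CC011/UncJ x CC005/TauUncJ)F1 to 3.502 in (CC051/TauUncJ x CC060/UncJ)F1. Without the libraries against their sex label the lowest was 2.03, in (CC002/UncJ x CC075/UncJ)F1, and the interaction of Amd1 was still called (adjusted p = 1.2e-23). Odc1 ran from 0.43 in (CC011/UncJ x CC005/TauUncJ)F1 to 2.27 in (CC051/TauUncJ x CC060/UncJ)F1. Without those libraries the lowest value of Odc1 was 0.46, in (CC009/UncJ x CC013/GeniUncJ)F1. Smox ran from 0.86 in (CC011/UncJ x CC005/TauUncJ)F1 to 2.85 in (CC051/TauUncJ x CC019/TauUncJ)F1, and its lowest value without those libraries was 1.21, in (CC030/GeniUncJ x CC002/UncJ)F1.

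The diet comparison asked what a 44% fat diet changed relative to 10% fat in untreated animals. Smox, Odc1 and Azin1 were lower on 44% fat, with changes of -17.2%, -10.4% and -9.08%, and Amd1 and Srm did not pass the test. That is 3 of 5 members, all lower, where 20.3% of all genes were called and 10.1% were lower on 44% fat. The log2 fold changes, 44% minus 10% fat, were -0.27 ± 0.05 for Smox (adjusted p = 3.3e-06), -0.16 ± 0.04 for Odc1 (adjusted p = 0.0011) and -0.14 ± 0.02 for Azin1 (adjusted p = 3.6e-08). Smox was lower in 19 of 20 strains, and Odc1 and Azin1 in 18 of 20. Diet took 5.42% of the variance of Azin1, more than in 98.6% of genes, 1.33% of that of Smox and 0.749% of that of Odc1. In the lower identifier range alone all 3 were called (-0.25, -0.14 and -0.12), where 17.2% of all genes were. In the upper range alone 2.2% of all genes were called. Smox had -0.43 ± 0.14 there (adjusted p = 0.090), Odc1 -0.28 ± 0.11 (adjusted p = 0.20) and Azin1 -0.22 ± 0.06 (adjusted p = 0.027).

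For the other pair the intervals were narrow. The ratio of 44% to 10% fat had a 95% interval of 0.920 to 1.03 for Amd1 (log2 fold change -0.04 ± 0.04, adjusted p = 0.51) and of 0.953 to 1.02 for Srm (-0.02 ± 0.02, adjusted p = 0.59). Over all untreated libraries, Amd1 was lower on 44% fat in 16 of 20 strains. Its value depended on the libraries whose sex went against the label. Without them it was -0.10 ± 0.03 and passed the test (adjusted p = 0.011).

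For Smox, the diet difference was larger in males. Its level in untreated males had a median of 128 CPM on 10% fat (37.03 to 609 CPM) and of 85.4 CPM on 44% fat (28.7 to 357 CPM). In females it had 28.1 CPM (10.8 to 89.8 CPM) and 27.2 CPM (11.6 to 114.7 CPM). The male groups were shifted but overlapped over most of their range, and the female groups lay on each other.

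Odc1 had a median of 156 CPM in males on 10% fat (42.8 to 415 CPM) and 117.2 CPM on 44% fat (43.7 to 463 CPM). In females its medians were 53.98 CPM (27.3 to 83.9 CPM) and 52.2 CPM (24.2 to 88.04 CPM). Amd1 had a median of 1293 CPM in males on 10% fat (641 to 2962 CPM) and 1099.8 CPM on 44% fat (170.0 to 2864 CPM), and 198 CPM (91.9 to 474 CPM) and 192 CPM (78.8 to 1039 CPM) in females. For both genes, the male medians were lower on 44% fat and the female medians were close.

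Fitted in males alone, 4 of 5 members fell on 44% fat, where 12.4% of all genes were called and 6.01% fell. Smox fell by 0.49 ± 0.07 on the log2 scale (adjusted p = 1.0e-08), Odc1 by 0.26 ± 0.06 (adjusted p = 0.00044), Amd1 by 0.16 ± 0.05 (adjusted p = 0.013) and Azin1 by 0.15 ± 0.03 (adjusted p = 3.1e-05). In females alone, Azin1 fell by 0.11 ± 0.03 (adjusted p = 0.0046), and 1 of 5 members was called where 10.7% of all genes were (5.31% lower). Smox there had -0.05 ± 0.04 (adjusted p = 0.59). The fits of a single sex, here and for metformin below, kept the libraries against their sex label and were not repeated without them. In (CC011/UncJ x CC005/TauUncJ)F1, with 5 such libraries, the log2 diet difference of Amd1 was -0.94 in males and 1.05 in females. The medians over the strains were -0.14 and -0.05. Smox in females of that strain had 0.52, against a median of -0.08.
The test of the difference between the sexes was passed by Smox, whose diet effect was lower in males by 0.48 ± 0.10 on the log2 scale (adjusted p = 0.0016). Without the libraries against their sex label it was -0.37 ± 0.09 (adjusted p = 0.026). In this interaction 0.568% of all genes were called, 0.36% with a lower value in males. For Odc1 (-0.24 ± 0.08, adjusted p = 0.15) and Amd1 (-0.22 ± 0.08, adjusted p = 0.23) the difference between the sexes did not pass, and that of Amd1 was -0.07 ± 0.06 without those libraries. Azin1 (-0.03 ± 0.04) and Srm (0.08 ± 0.05) did not pass either.

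The diet effect was also looked at in the animals on metformin, which are other animals of the same strains. There Smox had -0.20 ± 0.06 (adjusted p = 0.0077) and Azin1 -0.12 ± 0.03 (adjusted p = 0.0052), both called again, while Odc1 had -0.03 ± 0.05 (adjusted p = 0.82). Of all genes, 12.1% were called in these animals. Whether the diet effect differed between strains was tested as well, and none of the 5 members was called by edgeR (adjusted p from 0.27 to 0.70) or by limma, where edgeR called 4.13% of all genes. At an unadjusted p under 0.05 edgeR gave 1 member, Smox, and 2637 of the 16384 genes. Adipocyte markers summed to a median of 190 CPM on 10% fat (61.3 to 973 CPM) and 198 CPM on 44% fat (61.1 to 1049 CPM), with 5 of 6 called higher and 1 lower on 44% fat. Slow fibre markers had 3 of 7 called higher, endothelial markers 2 of 4 higher and muscle fibre markers 3 of 8 lower. No macrophage, liver, blood or Schwann cell marker was called, where 20.3% of all genes were. The part of the markers in the diet differences was not tested.

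Over both sexes, none of the 5 members was called for metformin by edgeR, where 19.4% of 17740 genes were. Azin1 had a log2 fold change, metformin minus untreated, of 0.05 ± 0.02 (adjusted p = 0.084), Srm of -0.05 ± 0.02 (adjusted p = 0.088), Smox of -0.09 ± 0.04 (adjusted p = 0.13), Odc1 of -0.06 ± 0.04 (adjusted p = 0.26) and Amd1 of -0.03 ± 0.03 (adjusted p = 0.60). At an unadjusted p under 0.05 there were 3, Azin1, Srm and Smox, and 5673 of the 17740 genes. DESeq2, which called 17.3% of all genes, called none of the 5 either. The 95% intervals of the ratios lay between 0.884 and 1.06 over the 5 genes. Without the term for identifier range, 26.8% of all genes were called. Among them were Azin1 (0.08 ± 0.02, adjusted p = 0.0015), Srm (-0.09 ± 0.02, adjusted p = 0.00098) and Smox (-0.11 ± 0.04, adjusted p = 0.043). Metformin was not balanced over the ranges. The upper range held 90 treated and 69 untreated libraries, and the lower range 144 treated and 400 untreated.

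The effect differed between the sexes for 4 of 5 members, where 3.12% of all genes were called and 2.09% had a lower value in males. The difference, males minus females, was -0.17 ± 0.04 for Azin1 (adjusted p = 0.0041), -0.27 ± 0.07 for Odc1 (adjusted p = 0.014), -0.16 ± 0.04 for Srm (adjusted p = 0.022) and -0.29 ± 0.08 for Smox (adjusted p = 0.030). Amd1 had -0.08 ± 0.07 (adjusted p = 0.52). In the upper identifier range alone none of these was called by edgeR, where 0.00566% of all genes were. An unadjusted p under 0.05 was reached there by 1 member, Srm, and by 893 of the 17683 genes. The values there were -0.02 for Azin1, -0.19 for Odc1, -0.20 for Srm and -0.10 for Smox. In the lower range alone Odc1 (-0.32 ± 0.08) and Smox (-0.39 ± 0.10) were called, as were 1.78% of all genes. Azin1 (-0.15 ± 0.05, adjusted p = 0.053) and Srm (-0.12 ± 0.05, adjusted p = 0.20) were not. By limma Smox lost its call over all libraries (adjusted p = 0.11), and in the lower range all 4 lost theirs (adjusted p from 0.077 to 0.26).

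Among males, the medians of Smox and Srm were lower with metformin on both diets, and that of Odc1 on 10% fat. On 10% fat, Smox had a median of 107.8 CPM with the drug (44.0 to 222 CPM, n = 59), Odc1 of 123 CPM (33.7 to 416 CPM) and Srm of 2.99 CPM (1.42 to 4.71 CPM). The untreated males on this diet had 128, 156 and 3.45 CPM. On 44% fat, treated males had 77.01 CPM of Smox (30.5 to 237 CPM, n = 59), 117.4 CPM of Odc1 (52.1 to 395 CPM) and 3.07 CPM of Srm (1.83 to 4.80 CPM). The untreated males there had 85.4, 117.2 and 3.45 CPM. The ranges of treated and untreated males overlapped nearly in full.
In a fit of males alone, Smox fell by 0.23 ± 0.06 on the log2 scale (adjusted p = 0.0065), Odc1 by 0.20 ± 0.05 (adjusted p = 0.0075) and Srm by 0.12 ± 0.03 (adjusted p = 0.010), so 3 of 5 members were called against 12.2% of all genes, 6.98% as lower. Srm was lower with metformin in the males of 19 of 20 strains. Smox and Odc1 were lower in those of 12 of 20.

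Among females, Azin1 was the member that changed. It rose by 0.11 ± 0.03 on the log2 scale (adjusted p = 0.0045) in a fit of females alone, in which 9.39% of all genes were called and 4.13% were higher, and was higher with metformin in the females of 16 of 20 strains. Its median in females on 10% fat was 38.98 CPM without the drug (21.8 to 105.4 CPM) and 43.2 CPM with it (27.1 to 102.9 CPM), and on 44% fat 37.9 CPM (24.1 to 71.2 CPM) and 39.8 CPM (26.1 to 71.7 CPM). The female ranges overlapped nearly in full. In males Azin1 had -0.01 ± 0.03 (adjusted p = 0.78).

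**Figure D3:**
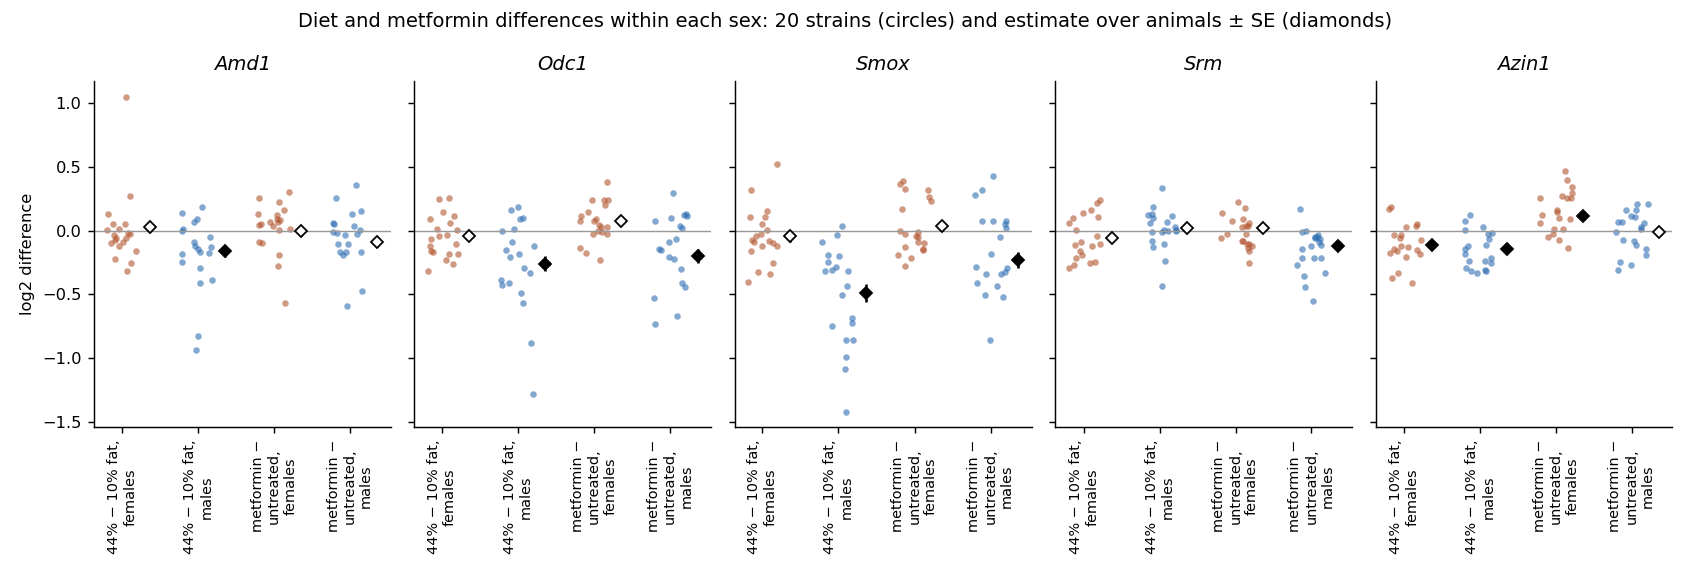
Log2 difference for diet (44% minus 10% fat, untreated animals) and metformin (metformin minus untreated) within each sex, with the 20 strains as circles and the estimate over animals ± SE as a diamond, filled where it was called. The diamonds of Smox and Odc1 are filled and below 0 in males for both comparisons, and that of Azin1 in females is filled below 0 for diet and above 0 for metformin.

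Metformin by diet and metformin by strain were also tested. None of the 5 members was called in either by edgeR, where 0.0902% and 11.6% of all genes were. For metformin by diet, 1 member, Odc1, had an unadjusted p under 0.05 (0.15 on the log2 scale), as did 1609 of the 17740 genes. For metformin by strain there were 2, Smox and Azin1, and 4607 of the 17740 genes (adjusted p of the 5 members from 0.15 to 0.37). By limma none was called in either test. Treated animals differed from untreated animals in markers too, with 3 of 6 adipocyte markers called lower (summed median 169 against 197 CPM) and 3 of 8 muscle fibre markers called higher. Of 4 Schwann cell markers 2 were called lower, and of 4 endothelial markers 1 was called higher and 1 lower. No slow fibre, macrophage, liver or blood marker was called, where 19.4% of all genes were. The part of the markers was not tested.

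Beyond the shared sex difference, the members also varied together between single animals of a sex. After strain, diet and identifier range were taken out, Amd1 and Smox had Pearson's r = 0.771 (rho = 0.792) over 233 untreated males and 0.644 (rho = 0.579) over 236 females. Odc1 and Smox had 0.666 (rho = 0.678) in males and 0.326 (rho = 0.279) in females, and Amd1 and Odc1 had 0.513 (rho = 0.576) and 0.320 (rho = 0.275). Each of these 6 had an adjusted p of 2.22e-05 for r in a two-sided permutation test, from the smallest p that 100000 permutations can give, adjusted over the 20 pairs of genes and sexes. Animals that were high in 1 of the 3 transcripts tended to be high in the other two.

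Within each identifier range these relations were of unequal strength, and the difference between the ranges was not tested. Amd1 and Smox had r = 0.785 in the lower and 0.772 in the upper identifier range in males, and 0.674 and 0.439 in females. Odc1 and Smox had 0.697 and 0.445 in males and 0.389 and 0.315 in females. Amd1 and Odc1 had 0.554 and 0.220 in males and 0.362 and 0.0699 in females, and the upper range held 34 males and 35 females. Leaving out the 2 animals farthest from the median left r between 0.255 and 0.787 for the 6 relations, and leaving out the libraries against their sex label left 0.221 to 0.793.

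Azin1 varied with the other 3 in males. Its r in males was 0.320 with Amd1, 0.342 with Odc1 and 0.333 with Smox (rho 0.366, 0.326 and 0.363, adjusted permutation p = 2.22e-05 for each r). In males of the lower and upper identifier range it was 0.254 and 0.771 with Amd1, 0.320 and 0.347 with Odc1, and 0.277 and 0.657 with Smox. In females it was 0.0821, 0.122 and -0.118 (adjusted permutation p = 0.258, 0.0952 and 0.102), and of the rank correlations in females that with Odc1 passed (rho = 0.145, adjusted permutation p = 0.0384). Srm had its highest r with Odc1, 0.272 in males (rho = 0.262, adjusted permutation p = 6e-05) and 0.158 in females (rho = 0.162, adjusted permutation p = 0.0251), and with Azin1 it had -0.000559 in males. The difference between the sexes in these correlations was not tested. All values of an animal come from 1 library and share its depth.

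**Figure D4:**
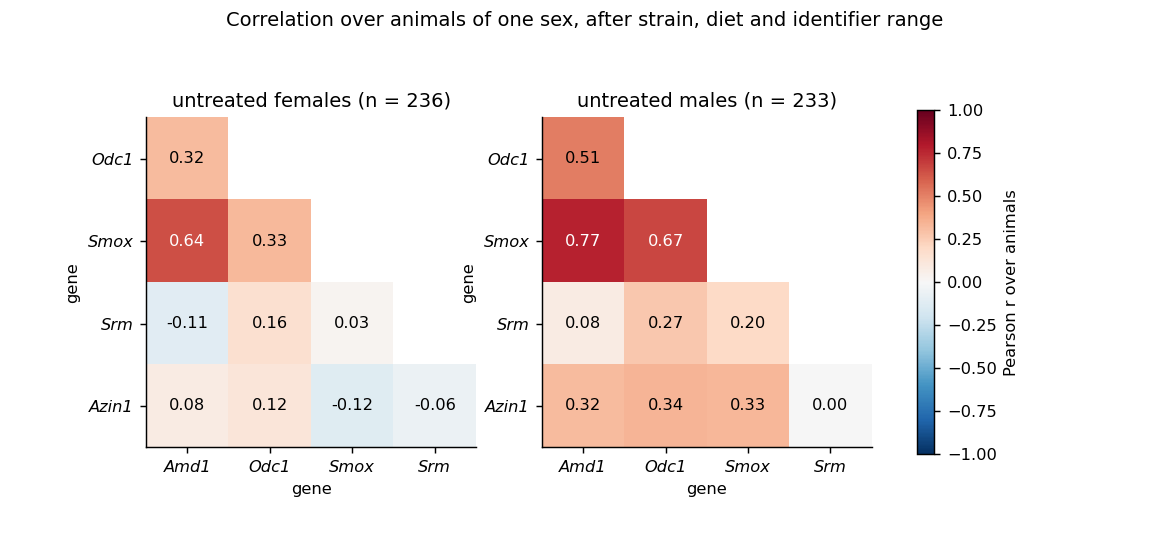
Pearson's r between the 5 genes over single untreated animals, after strain, diet and identifier range, in 236 females and 233 males. Amd1, Odc1 and Smox form the block with the highest values in both panels, from 0.320 to 0.644 in females and 0.513 to 0.771 in males.

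Across strains, the sex differences of the 3 genes also went together, described here over 20 strains without a test. The sex difference of Amd1 and that of Smox had r = 0.807 (rho = 0.771, and r = 0.731 without the 2 strains farthest from the median), and those of Odc1 and Smox had r = 0.715 (rho = 0.729, and 0.534 without 2). For Amd1 and Odc1 the value of 0.573 (rho = 0.511) fell to 0.199 without 2 strains. Leaving out the libraries against their sex label gave r = 0.755 for Amd1 and Smox and 0.645 for Odc1 and Smox. For Amd1 and Odc1 it gave 0.466 (rho = 0.495, and r = 0.341 without 2 strains). The mean levels of the strains were less alike, with r = 0.518 for Amd1 and Smox, -0.116 for Odc1 and Smox, and 0.273 for Amd1 and Odc1.

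The genes with the most similar pattern were sought among 10120 genes over the 40 means of strain and sex, by Pearson's r and without a test. For Amd1 these were Cdk19 (r = 0.970), which encodes a kinase of the Mediator complex, Cited4 (0.944), a transcriptional co-activator, and C7 (0.943), a complement component. Cdk19 lies near Amd1 on chromosome 10, from 40349308 to 40483818 on the opposite strand, 47.1 kb away. The deposited annotation, which holds 19088 genes, has 0 genes between Cdk19 and Amd1. The level of Cdk19 is given next. Its level was 9.24 to 44.7 CPM in untreated females (median 16.3 CPM) and 15.5 to 103.6 CPM in untreated males (median 58.6 CPM), a log2 fold change of 1.86 ± 0.03. It followed Amd1 over single animals with r = 0.789 in males and 0.610 in females (rho 0.728 and 0.395), as a description.

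The most similar genes of Odc1 were Adi1 (0.926), an enzyme that recycles the methylthioadenosine left over from spermidine and spermine synthesis, Nek9 (0.925) and Ube2v1 (0.905). Both Adi1 and Nek9 are on chromosome 12 like Odc1, 11.1 and 67.7 Mb away. Smox had Amd1 itself first (0.943), then Nek9 (0.928) and Prkacb (0.922), a catalytic subunit of protein kinase A. For Srm they were Ddost (0.694) and Pdia6 (0.691), which act on proteins in the endoplasmic reticulum, and Krtcap2 (0.674). For Azin1 they were Clec16a (0.710), Shisa4 (0.706) and S100a16 (0.699).
Means of the sexes dominate these values for Amd1, Odc1 and Smox. With the means centred within each sex, the first genes were Nt5dc3 for Amd1 (0.747), Eps15 for Odc1 (0.727), Abca7 for Smox (0.706), Phlda3 for Srm (0.673) and S100a13 for Azin1 (0.742). Adi1 stayed among the first 3 of Odc1 (0.714), and Ddost and Pdia6 among those of Srm.

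Counts of Amd1 depend on how reads are shared with its copies. Amd2, a near-identical copy of the gene on the same chromosome, held 73.2% of the 100-base words of the longest Amd1 transcript, and the pseudogene Amd-ps3 held 26%. In all, 76.4% of the words of Amd1 occurred in another gene, against 19.6% for Odc1 (in its pseudogenes), 5.45% for Azin1 and none for Smox and Srm. A read in such a stretch is divided by the authors' counting method, by expectation maximisation, among the genes that share it.

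The count given to Amd2, as a percentage of that of Amd1, fell into separate classes of strains. In 9 strains its median was 0.351 to 0.589% in untreated females and 0.261 to 0.331% in males. In 5 strains it was 4.90 to 5.27% and 4.98 to 5.52%, and in another 5 it was 9.38 to 10.8% and 8.07 to 9.52%. In (CC009/UncJ x CC013/GeniUncJ)F1 it was 78.6% in females and 65.3% in males. This is the strain with the lowest Amd1 median. Its Amd1 counts summed with those of Amd2 and Amd-ps3 had a mean of 221 ± 46.5 CPM in females and 1276 ± 108.3 CPM in males, inside the range of the other strains. In 6 strains whose other libraries had a share above 2%, 34 libraries, treated ones included, had a share between 0.186 and 1.22%.

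**Figure D5:**
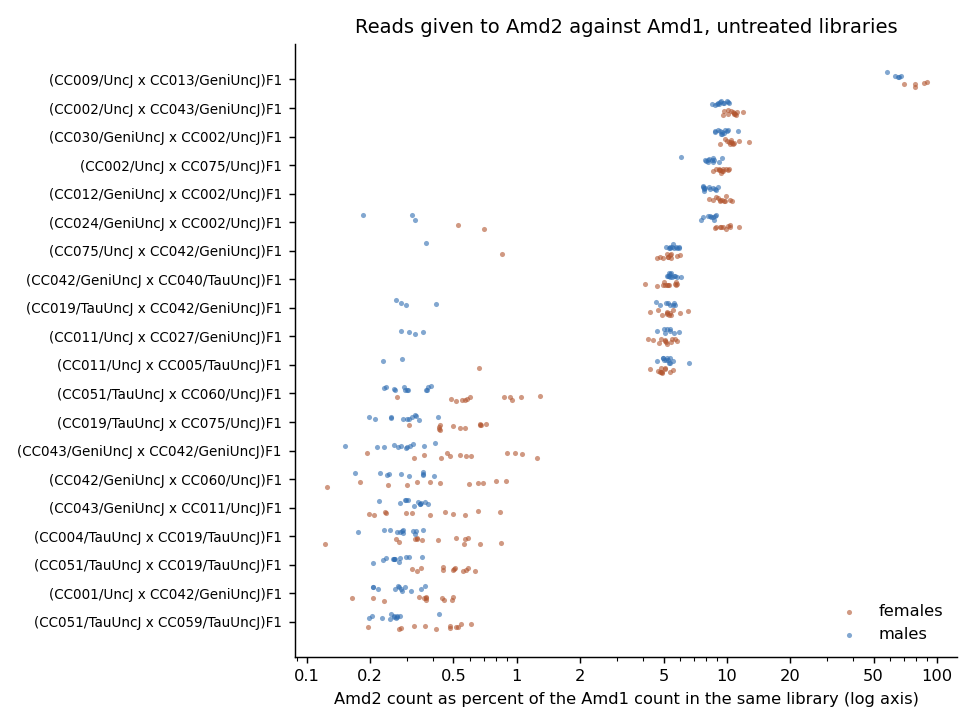
Count of Amd2 as a percentage of the count of Amd1 in untreated animals (log axis), by strain, 1 point per library, females and males in different colours. Female strain medians lie at 0.351 to 0.589%, 4.90 to 5.27%, 9.38 to 10.8% or 78.6%, and single libraries of some strains lie far below the rest of their strain.

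With the copies included, the sex difference had nearly the same size. Amd2 alone was higher in males by 2.19 ± 0.07 on the log2 scale (adjusted p = 5.6e-108), and Amd1 summed with both copies by 2.68 ± 0.04 (adjusted p = 9.3e-222). The summed counts also left diet (-0.04 ± 0.04, adjusted p = 0.47) and metformin (-0.03 ± 0.03, adjusted p = 0.58) uncalled, and sex by strain called (adjusted p = 8.9e-31).

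A wider list of 36 polyamine-related genes placed the members in their pathway, of which 34 were in the table. For sex, 24 of the 32 tested were called (17 higher and 7 lower in males), with a median log2 fold change of 0.07. Of all genes 67.1% were called, 30.1% higher and 37% lower, so the total of called genes was near the background. In the steps of synthesis, Sms, the spermine synthase, was higher in males by 0.43 ± 0.02, and Adi1 by 0.63 ± 0.02. Azin2, another antizyme inhibitor, was higher by 0.30 ± 0.04. The methionine adenosyltransferase Mat1a had 0.56 ± 0.25 (adjusted p = 0.040), but its value was -0.37 without the libraries against their sex label and -0.39 without those high in liver transcripts. Among organic cation transporters, Slc22a2 was lower in males (-0.96 ± 0.08) and Slc22a3 higher (0.31 ± 0.05). Asl, a urea cycle enzyme, was lower by 0.43 ± 0.03.

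For diet, 6 of 32 genes of the list were called, 2 higher and 4 lower on 44% fat. Slc22a2 rose by 0.48 ± 0.08 and Mat2b, a regulatory subunit of methionine adenosyltransferase, by 0.09 ± 0.01. Mtap, which breaks down methylthioadenosine, fell by 0.15 ± 0.02, and Mat2a, the catalytic partner of Mat2b, by 0.13 ± 0.02. Asl fell by 0.13 ± 0.03 and the vesicular polyamine transporter Slc18b1 by 0.08 ± 0.03. The share of 6 in 32 was near the background of 20.3%. In diet by sex 1 gene of the list was called, Arg1, an arginase that makes ornithine (-1.61 ± 0.43, adjusted p = 0.037). It was at 0 in 207 of the 703 libraries, with a median of 0.062 CPM and a highest value of 52.5 CPM, and this interaction was not fitted without the libraries high in liver transcripts.

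For metformin, 8 of 33 genes of the list were called, near the background of 19.4%. Oaz3, an antizyme, was higher by 0.38 ± 0.10, but its mean was 0.080 CPM and it was at 0 in 126 of the 703 libraries. Slc22a2 was higher by 0.20 ± 0.07 and Atp13a3, a polyamine transporter, by 0.05 ± 0.01, and in the upper identifier range alone they had -0.17 and -0.022. Slc22a3 was lower (-0.13 ± 0.04, and 0.056 in the upper range alone), as were Asl (-0.12 ± 0.03), the acetyltransferase Sat1 (-0.08 ± 0.02), the polyamine oxidase Paox (-0.08 ± 0.02) and Mtap (-0.07 ± 0.02). Both Sat1 and Paox belong to the breakdown of polyamines. None of the 33 was called for metformin by sex with edgeR, where 3.12% of all genes and 4 of the 5 members were. An unadjusted p under 0.05 was reached by 7 of the 33 and by 3550 of the 17740 genes, so the list was near the background.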

How the data were processed

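Gastrocnemius RNA of 703 mice was sequenced from both ends (100 bp each). The authors aligned the reads to the transcriptomes of the 8 founders and divided shared reads by expectation maximisation (EMASE and GBRS), and the estimated counts per gene were deposited as whole numbers. Per the labels' processing notes the build is GRCm38. The authors' variance-stabilised values (DESeq2, unit other) entered only as an alternative, and positions came from the deposited annotation. CPM were counts over the library total, and lengths were union exons of GENCODE M21. The test was edgeR 4.0.16 in R 4.3.3 (TMM scaling, filterByExpr, then glmQLFit and glmQLFTest), with strain, sex, diet and identifier range as terms, plus metformin where all 703 libraries entered. A gene was called at an adjusted p under 0.05 (Benjamini-Hochberg over all genes tested). Standard errors were the log2 fold change divided by the square root of the F statistic. The edgeR fits and the limma fits on log2 CPM were tested on simulated sex and diet differences. Other steps were not tested on simulated data. The alternatives used limma 3.58.1 and DESeq2 1.42.0. Descriptions used Python 3.11.15 with numpy 2.4.6, scipy 1.17.1 and pandas 2.3.3. The members and lists were chosen with earlier results of these data known. Named genes were the 5 members, at most 8 called genes of the wider list per comparison, and the 3 most alike genes of each member. Fits of diet in each sex, interactions without libraries against their sex label or within an identifier range, limma on log2 CPM, summed copies and correlations over single animals were chosen after seeing the data. Samples are separate animals, their numbers follow accession order, and libraries held 27368536 to 96100529 counts. Counts cover counting error and not the sharing of reads between copies.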

Additional observations from a re-analysis of the deposited data

Results flagged for a closer look

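In untreated males of (CC042/GeniUncJ x CC060/UncJ)F1 (n = 10), 1 animal stood apart from the others at 1736 CPM of Amd1 (median 1239 CPM) and 1 at 205.1 CPM of Smox (median 79.9 CPM). These 2 came from the same group, among 15 checks of 5 genes in the 3 groups of strain and sex with 4 to 10 untreated animals, and chance marks about 1 in 20 checks.

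The effect of diet on Smox differed between the sexes (-0.4766 on the log2 scale, males minus females). The effect of metformin, which cannot be told apart from age, differed between the sexes for Srm (-0.1558), Odc1 (-0.2729), Smox (-0.2856) and Azin1 (-0.1742). The sex difference varied with strain for Amd1 (adjusted p = 9.9e-31, edgeR), Odc1 (adjusted p = 6.3e-22), Smox (adjusted p = 3.1e-18) and Azin1 (adjusted p = 0.0011).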

How the results depend on the processing

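No paired analysis was possible because replicate numbers were given in accession order and pair no animals. All values are log2 differences or percentages of all tested genes that were called, and the cause of a change was not tested. Fits within an identifier range, a sex or the treated animals also held fewer animals. Sex: in the upper identifier range Srm had -0.093 and Azin1 -0.15, in treated animals Azin1 had -0.054, and Mat1a had -0.27 (upper range), -0.37 (without libraries against their sex label), -0.39 (without liver-high libraries) and -0.44 (treated). The upper range called 26.1% of genes against 67.1%, and sex took 8.64% of the variance of Azin1 in the lower range. Diet: Amd1 had -0.10 without libraries against their sex label and -0.16 in males, Odc1 -0.28 in the upper range, -0.027 in treated animals and -0.040 in females, and Smox -0.43 in the upper range and -0.046 in females. Genes called were 2.2% (upper), 12.1% (treated), 10.7% (females) and 12.4% (males) against 20.3%. Metformin: without the range term Smox had -0.11, Srm -0.086 and Azin1 0.076, in males Odc1 had -0.20, Smox -0.23 and Srm -0.12, and in females Azin1 had 0.11. In the upper range Slc22a2 had -0.17, Slc22a3 0.056 and Atp13a3 -0.022. Genes called were 26.8% (without the range term), 0.00566% (upper), 9.39% (females) and 12.2% (males) against 19.4%. Diet by sex: Smox had -0.87 in the upper range, and genes called were 0.305% (limma), 0.122% (limma, lower range), 0.336% (without libraries against their sex label), 0.196% (lower) and 0% (upper) against 0.568%. Metformin by sex, where each of the following values lost its call: limma in the lower range gave Odc1 -0.28, Smox -0.33, Srm -0.12 and Azin1 -0.14, limma gave Smox -0.23, edgeR in the lower range gave Srm -0.12 and Azin1 -0.15, and in the upper range Odc1 -0.19, Smox -0.10, Srm -0.20 and Azin1 -0.022. Genes called were 1.22% (limma), 0.397% (limma, lower range), 1.78% (lower) and 0.00566% (upper) against 3.12%. By limma and by limma in the lower range, genes called were 0.623% and 0.3% against 4.13% for diet by strain, 0% and 0% against 0.0902% for metformin by diet, and 3.06% and 1.37% against 11.6% for metformin by strain. For sex by strain, limma in the lower range called 22.8% against 34.1%. Per kilobase of the longest transcript, Odc1 stood at 24.02 and 69.8 CPM and Smox at 12.95 and 54.4 CPM in females and males, and Azin1 at 8.48 CPM in males. Leaving out 1 strain at a time, by limma, gave for sex 2.638 to 2.767 (Amd1), 1.429 to 1.535 (Odc1), 1.984 to 2.099 (Smox), -0.1023 to -0.07048 (Srm), 0.09781 to 0.1328 (Azin1) and 64.1 to 66.5% of genes called. For diet it gave -0.107 to -0.0746 (Amd1, called without (CC011/UncJ x CC005/TauUncJ)F1 at adjusted p = 0.015), -0.1833 to -0.1463 (Odc1), -0.3036 to -0.2579 (Smox), -0.04065 to -0.02003 (Srm), -0.1434 to -0.1208 (Azin1) and 17.2 to 19.2%. For metformin it gave -0.02735 to 0.0003905 (Amd1), -0.07266 to -0.03316 (Odc1), -0.07022 to -0.02602 (Smox), -0.06758 to -0.03931 (Srm), 0.03245 to 0.05856 (Azin1) and 11.6% (without (CC051/TauUncJ x CC019/TauUncJ)F1) to 17.1%. Of these, Srm was called without (CC002/UncJ x CC075/UncJ)F1, (CC004/TauUncJ x CC019/TauUncJ)F1 or (CC051/TauUncJ x CC060/UncJ)F1, and Azin1 without (CC011/UncJ x CC027/GeniUncJ)F1 or (CC019/TauUncJ x CC042/GeniUncJ)F1. The main values come from edgeR, so these limma ranges need not hold them. The edgeR values of Amd1 for diet (-0.04193), and of Amd1 (-0.0292) and Smox (-0.09164) for metformin, lay outside.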

Other observations

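Azin1 in untreated females of (CC019/TauUncJ x CC042/GeniUncJ)F1 on 10% fat split by identifier range. The 3 females of the lower range had 21.8, 41.2 and 42.4 CPM, and the 3 of the upper range had 97.2, 100.0 and 105.4 CPM. On 44% fat the females of this strain had 42.2 to 57.5 CPM in the lower range and 43.4 to 64.7 CPM in the upper range. Males on 10% fat had 31.7 to 71.3 CPM in the lower range (n = 4) and 53.4 to 55.7 CPM in the upper range (n = 2).

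The libraries with a low Amd2 share were not spread evenly over strains. Of the 34, 6 females and 5 males belonged to (CC024/GeniUncJ x CC002/UncJ)F1, and 7 were among the 18 males of (CC019/TauUncJ x CC042/GeniUncJ)F1, where the share was 0.266 to 0.411%. Another 6 males and 1 female belonged to (CC011/UncJ x CC027/GeniUncJ)F1, 3 males to (CC042/GeniUncJ x CC040/TauUncJ)F1, 1 female and 2 males to (CC011/UncJ x CC005/TauUncJ)F1, and 2 females and 1 male to (CC075/UncJ x CC042/GeniUncJ)F1.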
